A study of Rattus norvegicus with 7 samples.

Results

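The genes described here are 8 that are known from the secretory club cells of the airway and from the cytochrome P450 enzymes of the lung. They were read in alveolar type 2 cells of ethanol-fed and control rats. The set holds the secretory protein gene Scgb1a1, the lipid-binding protein gene Sec14l3, and the P450 genes Cyp2a3, Cyp2b1, Cyp2b2, Cyp2b15, Cyp2f4 and Cyp4b1. Members were taken by gene symbol, as every probe set annotated to these genes alone. This gave 13 of the 8740 probe sets tested, 11 for P450 genes and 2 for the secretory genes. The genes themselves were picked from earlier results of these arrays, in which Cyp2a3, Cyp2b2 and Sec14l3 had low p-values between the diets. The diet difference of the members is therefore given as a description and supports nothing. Cyp2b1 had no probe set of its own and was read on 3 that it shares with Cyp2b2.

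All animals were male Sprague Dawley rats kept for 6 weeks on the liquid Lieber-DeCarlie diet, which supplied 36% of calories as ethanol in one group and an isocaloric substitute in the other. Type 2 cells were isolated from each rat by immuno-adsorption, and Trizol-extracted RNA was biotin-labelled for an Affymetrix expression array. There were 4 control arrays, numbered 1 to 4, and 3 ethanol arrays, numbered 2 to 4. The design text gives the same numbers of animals, and neither age nor a gene alteration is given in the sources used here. All control arrays carry lower array numbers than all ethanol arrays, so diet and anything that follows this numbering cannot be told apart.

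Club cells are secretory cells of the conducting airways. They release the protein encoded by Scgb1a1 into the airway lining fluid, and in rodents they are rich in P450 enzymes of the endoplasmic reticulum. P450 enzymes are haem proteins that oxidise drugs, inhaled chemicals, fatty acids and steroids, with electrons passed on by the reductase encoded by Por. Cyp2b1, the chief phenobarbital-type P450 of rat lung, is known from type 2 cells as well as from club cells.

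Most of the P450 members are neighbours in the genome. In RefSeq's GRCr8 gene table, Cyp2b1, Cyp2b2, Cyp2b15, Cyp2a3 and Cyp2f4 lie in this order within a run of 16 protein-coding genes on chromosome 1, of which 13 carry a Cyp2 symbol. That table also gives Cyp2b15 as an older name of Cyp2b12, although it lists both as separate genes. Which of these genes the probe sets annotated to Cyp2b15 read was not tested. Upstream sequences of all 8 members were found in RefSeq's GRCr8 promoter table. The 250 bases before the annotated start are shown for Scgb1a1 and for the 5 members on whose probe sets the ethanol mean was higher with an interval above 0, since they show how alike Cyp2b1 and Cyp2b2 are. Sequences run 5′ to 3′ on the gene's strand. Capitals mark matches to the letters TTGCNTAA, searched on both strands, which resemble the letters that C/EBP transcription factors can bind. The motif was chosen after the sequences had been read.

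Cyp2b1, chr1:90645869-90646118, + strand: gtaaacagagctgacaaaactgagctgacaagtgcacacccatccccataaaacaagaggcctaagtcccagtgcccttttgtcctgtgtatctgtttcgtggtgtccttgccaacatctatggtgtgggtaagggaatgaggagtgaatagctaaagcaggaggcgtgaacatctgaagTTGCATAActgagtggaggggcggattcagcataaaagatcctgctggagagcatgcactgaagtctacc
Cyp2b2, chr1:90722031-90722280, + strand: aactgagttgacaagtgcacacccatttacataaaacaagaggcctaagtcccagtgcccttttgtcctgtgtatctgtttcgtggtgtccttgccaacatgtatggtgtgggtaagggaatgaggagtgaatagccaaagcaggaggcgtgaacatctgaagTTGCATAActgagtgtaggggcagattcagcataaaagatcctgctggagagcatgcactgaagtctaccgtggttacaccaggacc
Cyp2b15, chr1:91221615-91221864, + strand: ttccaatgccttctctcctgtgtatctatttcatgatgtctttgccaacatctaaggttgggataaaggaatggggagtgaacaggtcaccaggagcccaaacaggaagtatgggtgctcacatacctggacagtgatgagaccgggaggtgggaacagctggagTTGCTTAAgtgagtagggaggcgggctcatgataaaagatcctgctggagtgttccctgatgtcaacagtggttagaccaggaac
Cyp2a3, chr1:91299334-91299583, + strand: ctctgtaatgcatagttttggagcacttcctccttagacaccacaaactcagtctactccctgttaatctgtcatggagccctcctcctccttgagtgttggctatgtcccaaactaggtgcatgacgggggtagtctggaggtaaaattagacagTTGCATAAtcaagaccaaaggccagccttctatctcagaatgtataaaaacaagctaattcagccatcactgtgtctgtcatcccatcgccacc
Sec14l3, chr14:83168008-83168257, + strand: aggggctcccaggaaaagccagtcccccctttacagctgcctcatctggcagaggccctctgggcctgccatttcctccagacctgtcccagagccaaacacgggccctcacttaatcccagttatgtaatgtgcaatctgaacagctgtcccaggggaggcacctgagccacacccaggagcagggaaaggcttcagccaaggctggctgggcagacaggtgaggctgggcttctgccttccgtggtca
Scgb1a1, chr1:215409687-215409936, - strand: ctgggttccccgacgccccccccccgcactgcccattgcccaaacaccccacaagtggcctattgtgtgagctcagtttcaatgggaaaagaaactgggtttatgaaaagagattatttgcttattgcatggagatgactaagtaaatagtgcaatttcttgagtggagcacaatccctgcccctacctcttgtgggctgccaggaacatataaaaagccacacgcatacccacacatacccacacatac

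Slid against each other without gaps to their best match, the windows of Cyp2b1 and Cyp2b2 were identical at 225 of 233 aligned bases (96.6%). Those of Cyp2b1 and Cyp2b15 were identical at 97 of 235 (41.3%), and those of Cyp2a3 and Cyp2b1 at 79 of 245 (32.2%). Without gaps, stretches that the Cyp2b1 and Cyp2b15 windows share at another offset are not counted, so their share understates how alike they are. The motif was present once in each of the Cyp2b1, Cyp2b2, Cyp2b15 and Cyp2a3 windows, on the gene's strand, starting 70, 87, 85 and 94 bases before the annotated start. It was not found in those of Scgb1a1, Sec14l3, Cyp2f4 and Cyp4b1. The windows that held the motif were thus those of the members that were higher, apart from Sec14l3. As the motif was chosen after reading the sequences, and the Cyp2b1 and Cyp2b2 windows are near copies, nothing is read from this. Only the exact letters of the motif were searched, so other letters that C/EBP factors can bind are not counted. Of 33469 windows of this length in the table, 707 (2.11%) held the motif. A match describes letters only and shows no binding. Closely related genes of this kind can also share array probes, so the Cyp2b probe sets are not independent readings.

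All expression values below are the deposited log2 values, on which a difference of 1 is a doubling. Differences are ethanol minus control, with the standard error (SE) and 95% confidence interval from limma's moderated linear model fitted to all 8740 probe sets. The Sftpc probe set, of the surfactant protein gene that defines type 2 cells, was the brightest on all 7 arrays. The Scgb1a1 probe set was brighter on average than 99.2% of probe sets, although brightness also depends on the probes. Correlation between any pair of the arrays lay between 0.929 and 0.983, and control 2 stood apart on the first principal component (44.2% of the variance).

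Scgb1a1, the secretory product by which club cells are recognised, overlapped fully between the diets (probe set rc_AI009524_at). Controls 1 to 4 lay at 9.83, 9.10, 8.91 and 9.30, and ethanol arrays 2 to 4 at 9.13, 9.40 and 9.19. All 3 ethanol arrays fell within the control range, whose upper end was control 1. The group means were 9.28 ± 0.398 (SD, n = 4) and 9.24 ± 0.142 (SD, n = 3). The difference was -0.046 (SE 0.206, interval -0.51 to 0.42), so shifts within that interval, in either direction, were not excluded. It was 0.14 without control 1.

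Sec14l3, a gene of a Sec14-like lipid-binding protein, did not share that pattern, although it was grouped with Scgb1a1 as a secretory gene (probe set AJ132352_at). Its control values were 6.55, 5.75, 5.18 and 6.30, and its ethanol values were 7.26, 6.63 and 7.28. The groups did not overlap, but ethanol 3 was only just above control 1. The mean went from 5.95 ± 0.609 (SD, n = 4) to 7.06 ± 0.367 (SD, n = 3), a difference of 1.11 (SE 0.309, interval 0.42 to 1.81), or 2.16 times the control level. Sec14l3 is also known as a gene of ciliated airway cells, so its place among the secretory genes is uncertain. Of the 2 genes, one was higher with ethanol by more than its control spread and the other was not. In an isolate of many cells, more cells of a type and more RNA per cell cannot be told apart, for this and every gene below.

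**Figure D1:**
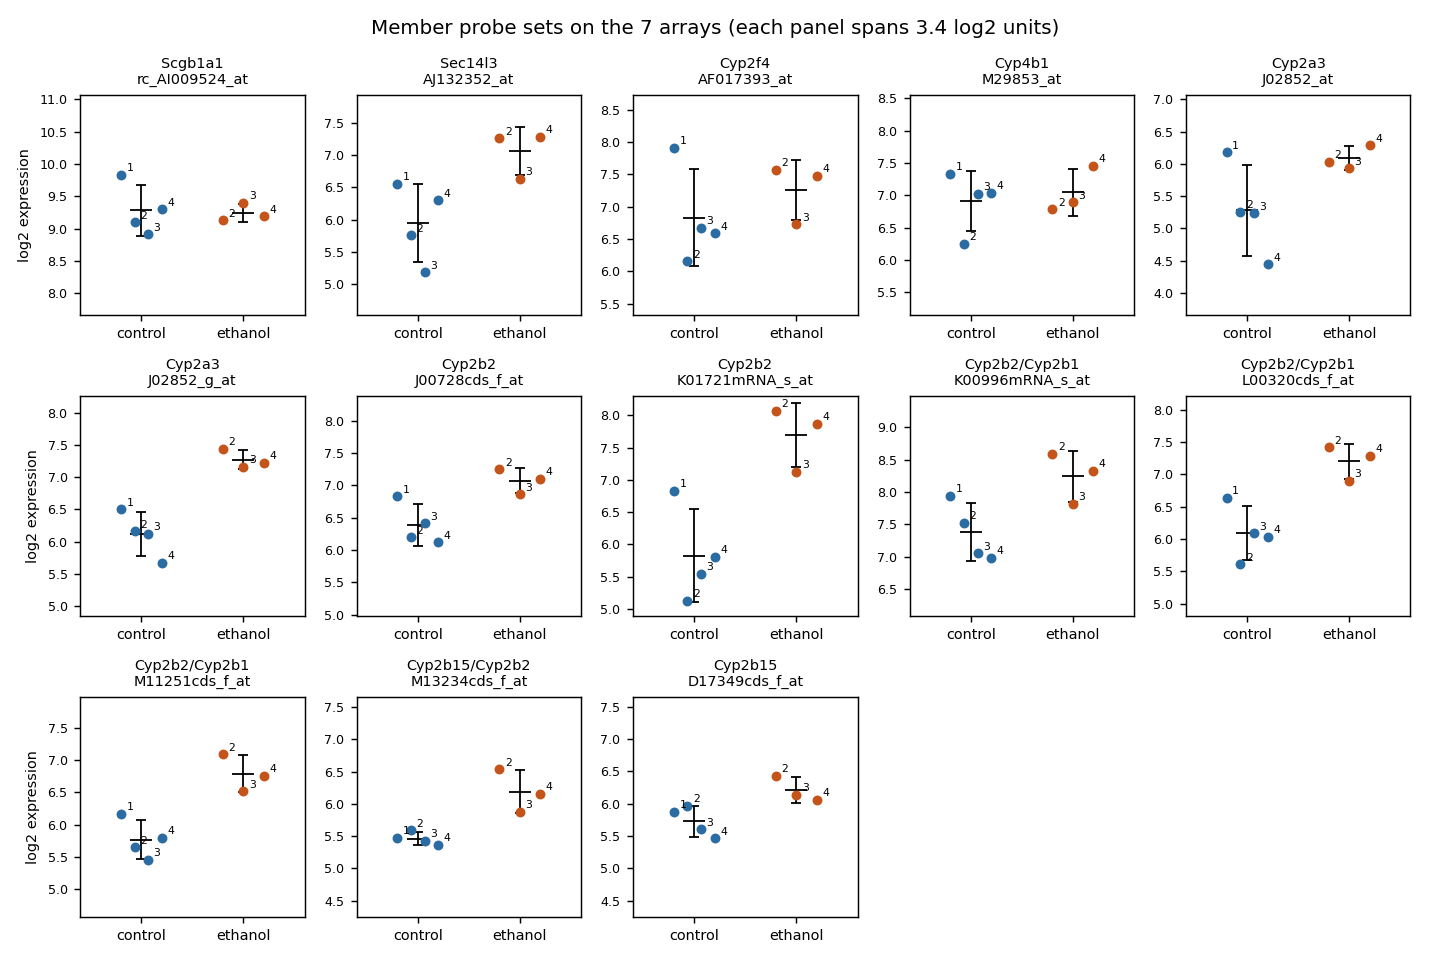
Log2 expression of the 13 member probe sets on the 4 control (blue) and 3 ethanol (orange) arrays, numbered as in the labels; black marks are the mean and SD, and all panels span the same log2 range. Ethanol arrays lie above every control in 8 panels, among them K01721mRNA_s_at of Cyp2b2 (7.13 to 8.07 against 5.12 to 6.83), while those of Scgb1a1 lie within the control range.

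Cyp2f4 and Cyp4b1, the P450 genes most closely tied to club cells in rodent lung, overlapped between the diets. Cyp2f4, whose enzyme activates naphthalene (probe set AF017393_at), lay at 7.91, 6.15, 6.68 and 6.59 in controls 1 to 4 and at 7.57, 6.73 and 7.48 in ethanol 2 to 4. Control 1 was the highest of the 7 arrays, and ethanol 3 was close to controls 3 and 4. The means were 6.83 ± 0.753 (SD, n = 4) and 7.26 ± 0.464 (SD, n = 3), a difference of 0.43 (SE 0.377, interval -0.42 to 1.28). The difference was 0.79 without control 1 and 0.20 without control 2.

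Cyp4b1, a P450 that oxidises fatty acids and plant furans (probe set M29853_at), lay at 7.33, 6.25, 7.02 and 7.04 in the controls and at 6.78, 6.89 and 7.46 with ethanol. Only ethanol 4 was outside the control range, and control 2 was the lowest array. The means were 6.91 ± 0.462 (SD, n = 4) and 7.04 ± 0.364 (SD, n = 3). The difference of 0.13 (SE 0.258, interval -0.45 to 0.71) was smaller than the spread within either group, and it was -0.087 without control 2.

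Cyp2a3 encodes a P450 of rat lung and nasal mucosa that oxidises coumarin and tobacco nitrosamines, and both of its probe sets were higher in the ethanol arrays. On J02852_g_at the controls lay at 6.50, 6.16, 6.13 and 5.68 and the ethanol arrays at 7.44, 7.16 and 7.22. The lowest ethanol array was thus well above the highest control. The means of 6.12 ± 0.339 (SD, n = 4) and 7.27 ± 0.144 (SD, n = 3) differed by 1.15 (SE 0.185, interval 0.74 to 1.57), or 2.23 times the control level. With each array left out the difference ran from 1.01 to 1.28.

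The second Cyp2a3 probe set, J02852_at, lay at 6.18, 5.25, 5.23 and 4.45 in the controls and at 6.03, 5.93 and 6.29 with ethanol. Here control 1 was above ethanol 2 and ethanol 3, so the groups overlapped. The means were 5.28 ± 0.707 (SD, n = 4) and 6.08 ± 0.185 (SD, n = 3), a difference of 0.81 (SE 0.328, interval 0.069 to 1.54). It was 1.10 without control 1 and 0.53 without control 4, the lowest array.

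The greatest difference among the members was that of Cyp2b2 on K01721mRNA_s_at. Cyp2b2 is the close relative of Cyp2b1 best known as a phenobarbital-induced P450 of rat liver. The controls lay at 6.83, 5.12, 5.55 and 5.81 and the ethanol arrays at 8.07, 7.13 and 7.87. No ethanol array overlapped the controls, although control 1 stood nearer to ethanol 3 than to the other controls. The means were 5.83 ± 0.726 (SD, n = 4) and 7.69 ± 0.497 (SD, n = 3). They differed by 1.86 (SE 0.373, interval 1.02 to 2.70), or 3.63 times the control level, and 8 of all probe sets tested had a greater difference. With each array left out it ran from 1.63 to 2.20.

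The other Cyp2b2 probe set, J00728cds_f_at, showed a smaller difference in the same direction. Its control values were 6.84, 6.20, 6.41 and 6.12 and its ethanol values 7.25, 6.87 and 7.11. The groups did not overlap, with ethanol 3 just above control 1. The difference was 0.68 (SE 0.185, interval 0.27 to 1.10), so the 2 probe sets named for this gene gave 1.61 and 3.63 times the control level.

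The 3 probe sets shared by Cyp2b1 and Cyp2b2 lay between those values. On L00320cds_f_at the controls lay at 6.63, 5.61, 6.09 and 6.04 and the ethanol arrays at 7.42, 6.90 and 7.29, a difference of 1.11 (SE 0.229, interval 0.60 to 1.63). On M11251cds_f_at they lay at 6.17, 5.65, 5.46 and 5.80 and at 7.09, 6.52 and 6.75, a difference of 1.02 (SE 0.193, interval 0.58 to 1.45). Both separated the diets without overlap. On K00996mRNA_s_at the values were 7.94, 7.52, 7.05 and 6.98 in the controls and 8.59, 7.82 and 8.32 with ethanol, a difference of 0.87 (SE 0.259, interval 0.29 to 1.45). There ethanol 3 was below control 1. These probe sets do not tell Cyp2b1 from Cyp2b2.

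Cyp2b15 was read on D17349cds_f_at and, together with Cyp2b2, on M13234cds_f_at. The shared probe set lay at 5.47, 5.59, 5.43 and 5.37 in the controls, the narrowest control range of the members, and at 6.54, 5.88 and 6.15 with ethanol. Its difference was 0.72 (SE 0.160, interval 0.36 to 1.09). The probe set of Cyp2b15 alone lay at 5.87, 5.97, 5.60 and 5.46 and at 6.43, 6.14 and 6.06, a difference of 0.49 (SE 0.160, interval 0.13 to 0.84). It was the smallest difference of the 7 Cyp2b probe sets, and its groups were separated by less than the spread within either of them.

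**Figure D2:**
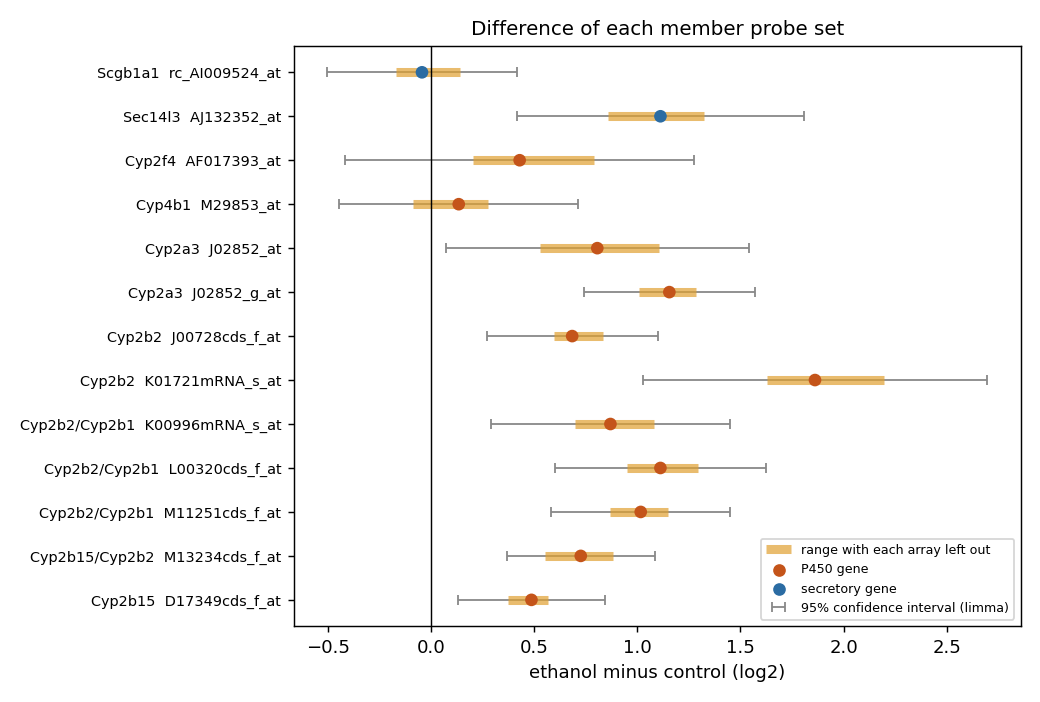
Ethanol minus control difference (log2) of each member probe set, with its 95% confidence interval from limma (grey) and the range of the difference when each array was left out in turn (yellow). Intervals of Scgb1a1, Cyp2f4 and Cyp4b1 include 0, and the other 10 lie above 0, with no correction for the number of probe sets.

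Of the 13 probe sets, 0 had a Benjamini-Hochberg adjusted p under 0.05 in limma over all 8740 probe sets, where 0.149% of all probe sets did. At an unadjusted p under 0.05, 10 were higher and 0 lower, beside 2.13% of all probe sets that were higher. In 8 the 3 ethanol arrays all lay above the 4 controls, beside 2.53% of all probe sets. As the genes were chosen from this same contrast, nothing is read from these shares. The lowest adjusted p among the members was 0.0777, for Cyp2a3 on J02852_g_at, and it ranged from 0.0153 to 0.696 over the alternatives. Without control 1, 2 members passed, J02852_g_at (adjusted p = 0.0377) and K01721mRNA_s_at (adjusted p = 0.0326, over all alternatives 0.0153 to 0.986). In that fit 0.16% of all probe sets passed.

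The P450 genes and the secretory genes did not divide cleanly by diet difference. The 11 P450 probe sets had a median difference of 0.81 and the 2 secretory ones of 0.53, where the median of all probe sets tested was -0.0051. Averaged per array as deviations from the control mean, P450 minus secretory lay at -0.040, -0.020, 0.47 and -0.41 in controls 1 to 4 and at 0.46, 0.16 and 0.31 in ethanol 2 to 4. Control 3 was thus as high as the highest ethanol array, and the group means differed by 0.31 with SDs of 0.358 (n = 4) and 0.151 (n = 3). The contrast rested on few values. It was 0.17 without control 4, 0.47 without control 3 and 0.083 with array weights. With Sec14l3 left out, so that Scgb1a1 alone stood for the secretory genes, it was 0.89. With 1 value per gene from the 7 probe sets of a single symbol, which cover 5 of the 6 P450 genes and leave out Cyp2b1, the P450 median was 0.49 and the contrast 0.13. With the 4 shared probe sets kept, so that all 6 had a value, these were 0.79 and 0.17.

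The members fell instead into those that were higher by over 0.4 with an interval above 0, which were Cyp2a3, the Cyp2b genes and Sec14l3, and those whose intervals included 0, which were Scgb1a1, Cyp2f4 and Cyp4b1. This division was drawn after the values were seen. Cyp2f4, 1 Cyp2a3 probe set and the probe set of Cyp2b15 alone did not hold their places in it when arrays were left out. Without control 1 the unadjusted p of Cyp2f4 in limma was 0.013 (adjusted p = 0.996, over all alternatives 0.475 to 0.999). The J02852_at probe set of Cyp2a3 had an unadjusted p under 0.05 in limma in 1 of the 7 fits that left out an array, while J02852_g_at had one in all 7. The Cyp2b15 probe set had one in 6 of 7. Without ethanol 2 its difference was 0.374 (unadjusted p = 0.0602 in limma), and without control 4 it was 0.398. The mean of the 9 Cyp2a3 and Cyp2b probe sets minus Scgb1a1 lay at -0.060, 0.080, 0.25 and -0.27 in controls 1 to 4. It lay at 1.36, 0.59 and 1.10 in ethanol 2 to 4. The diets did not overlap, but the probe sets were grouped by these same values, so nothing is read from that.

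**Figure D3:**
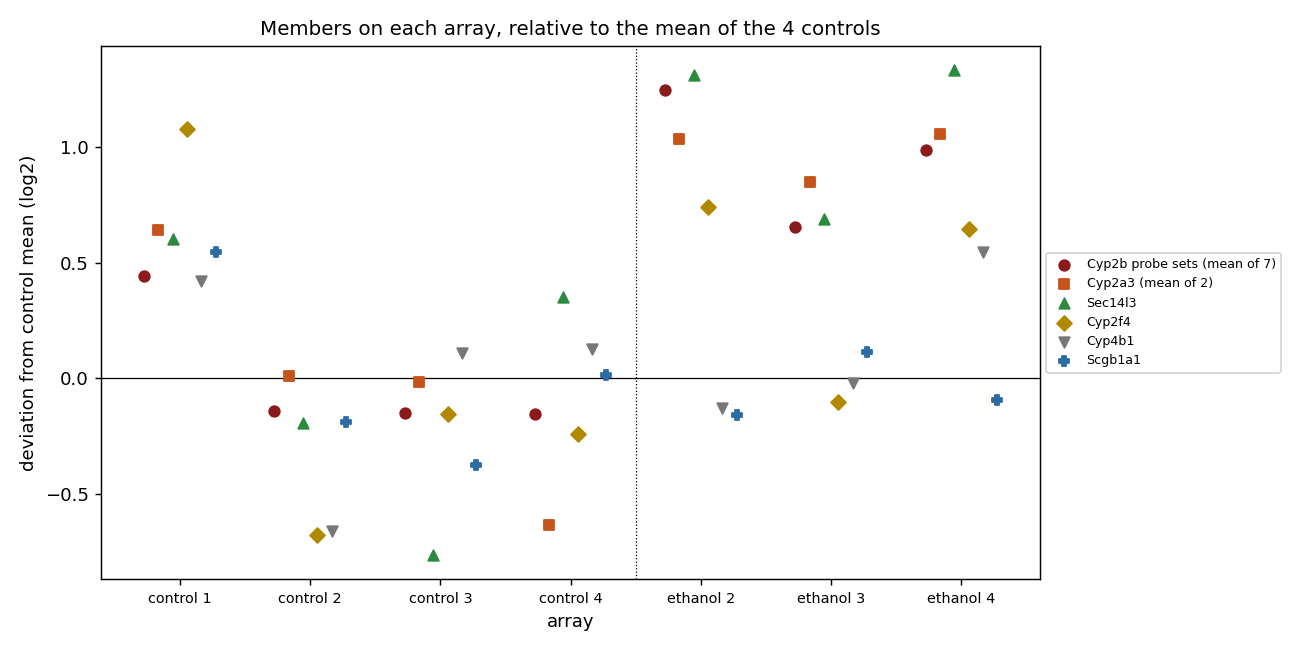
Deviation of each member from the mean of the 4 controls (log2) on each array; Cyp2b and Cyp2a3 are means over their 7 and 2 probe sets. In the ethanol arrays the Cyp2b mean lies at 0.66 to 1.25 and the Cyp2a3 mean at 0.85 to 1.06, while Scgb1a1 lies at -0.16 to 0.11; control 1 is raised in all 6 profiles (0.42 to 1.08).

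Arrays of the same diet also differed from each other in a way that many members shared. Control 1 was the highest control in 11 of the 13 probe sets, all but the 2 that read Cyp2b15, and ethanol 3 was the lowest ethanol array in 10. Control 1 exceeded the control mean by 1.08 for Cyp2f4, 0.64 for Cyp2a3, 0.60 for Sec14l3, 0.55 for Scgb1a1, 0.44 for the Cyp2b probe sets and 0.42 for Cyp4b1. Aldh1a1, a retinal dehydrogenase gene listed as a club cell marker and no member, lay at 8.39 in control 1 and 6.85 to 7.13 in the other controls. With ethanol it lay at 7.79, 7.16 and 8.00, so its 3 highest arrays were the same as those of Cyp2f4. Its diet difference was 0.30 (SE 0.353, interval -0.50 to 1.09). Aldh1a1 was singled out after its values were seen, and its list was mixed. Control 1 was the highest control in 6 of the 10 airway secretory genes measured and the lowest in 1, Aldh3a1, which lay at 4.18 there and at 4.55 to 4.62 in the other controls. By diet 8 of the 10 were lower in the ethanol arrays.

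Deviations from the group means were correlated over the 7 arrays to describe this shared variation, without a test. Over the 78 pairs of member probe sets the median r was 0.58, and it ran from -0.55 to 0.98. Cyp2f4 and K01721mRNA_s_at had r of 0.98, and Cyp4b1 and the Cyp2b15 probe set had the lowest. Of 2721 other genes above median brightness, those most like Scgb1a1 were C8h11orf54 (0.97), Urgcp (0.97), Atp5po (0.94), Hsp90ab1 (0.93) and Pgm3 (0.92). Those most like Cyp2a3 were Tnfrsf21 (0.98), Pon1 (0.97), Pdpn (0.97), Cdo1 (0.96) and Fgfr1 (0.96). With 7 arrays and this many candidates, values this high describe these arrays only.

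Most P450 genes outside the set differed little between the diets. The 86 other P450 probe sets had a median difference of 0.057 and a range of -0.36 to 0.58. In limma 0 passed at adjusted p under 0.05, 3 were higher and 0 lower at unadjusted p under 0.05, and 4 had all ethanol arrays above all controls. Of all probe sets 0.149% passed, 2.13% were higher at unadjusted p under 0.05 and 2.53% had all ethanol arrays above all controls. By gene, the lowest unadjusted p-values belonged to the steroid enzyme genes Cyp17a1 (0.29) and Cyp7b1 (0.36), Cyp2a2 (0.32) and the ethanol-inducible Cyp2e1 (0.28), given as log2 differences. The dioxin-inducible Cyp1a1 and Cyp1b1 were at 0.056 and -0.025. These are values of the brightest probe set of each gene, and other probe sets differed in sign. The other Cyp2e1 probe sets were at 0.086 and -0.040, and those of Cyp1b1 at -0.041, -0.088 and 0.27.

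Genes that lie between the members on chromosome 1 are the nearest relatives to compare, and they were picked after their values were seen. Their 9 probe sets, of Cyp2b3, Cyp2b12, Cyp2g1, Cyp2a1 and Cyp2a2, had differences of -0.23 to 0.58, with 0 at an unadjusted p under 0.05 or at an adjusted p under 0.05 in limma. In 0 of the 9 did the ethanol arrays all lie above the controls. Cyp2b3 on M20406_at lay at 6.02 ± 0.379 (SD, n = 4) and 5.78 ± 0.227 (SD, n = 3), a difference of -0.23 (SE 0.208). Cyp2b12 lay at 3.95 ± 0.193 and 4.00 ± 0.307. Cyp2a1 on M33312cds_s_at had the greatest difference, 0.58 (SE 0.374), but its controls ran from 5.10 to 6.94 and overlapped the ethanol values of 6.46 to 7.19. Whether these differences are smaller than those of the members was not tested, since the members were chosen for theirs.

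**Figure D4:**
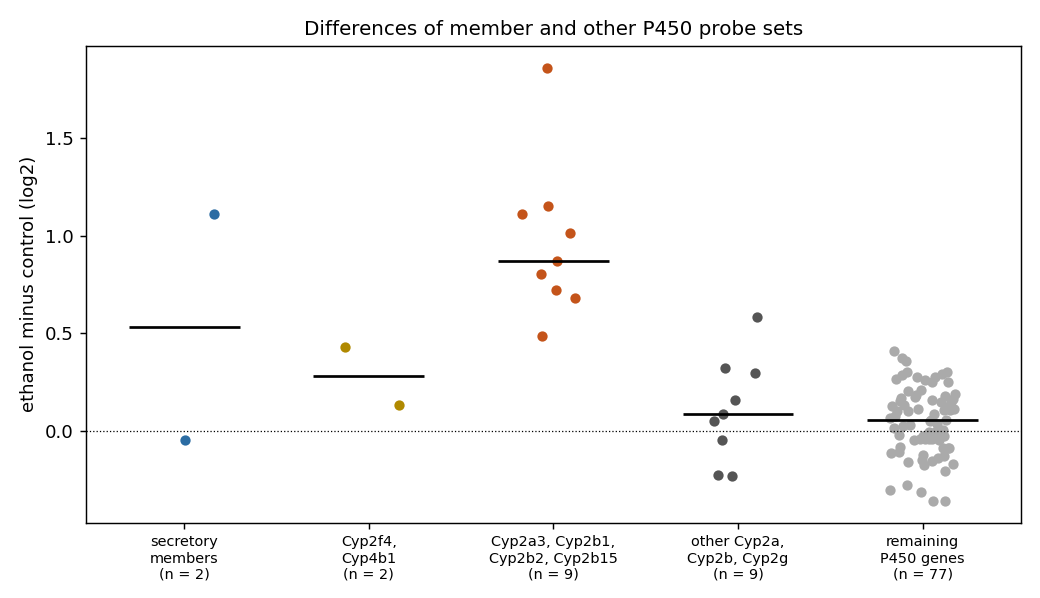
Ethanol minus control difference (log2) of single probe sets, for the secretory members, 3 groups of Cyp2 and Cyp4b1 probe sets and the remaining 77 P450 probe sets; bars are medians and the horizontal scatter has no meaning. The 9 Cyp2a3, Cyp2b1, Cyp2b2 and Cyp2b15 probe sets run from 0.49 to 1.86 and the remaining P450 probe sets from -0.36 to 0.41.

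Genes that serve or control P450 enzymes were not called in either direction. Of the list of electron supply and haem synthesis genes 14 of 20 were measured, 7 higher and 7 lower (median difference 0.0079). Por was at 0.077, Alas1, the first enzyme of haem synthesis, at 0.47, and Fdx1, the mitochondrial electron carrier adrenodoxin, at -0.57. Of 34 nuclear receptor and lung transcription factor genes 27 were measured, 14 higher and 13 lower (median 0.015). The glucocorticoid receptor gene Nr3c1 was at 0.069, the C/EBP factor gene Cebpd at 0.46, the NFI factor gene Nfib at 0.35 and Foxa2, an airway epithelial transcription factor gene, at -0.53. Of 44 other xenobiotic-inducible enzyme genes 28 were measured, 14 higher and 14 lower (median 0.0025), with Sult1a1 at 1.20, Gstm5 at 0.59 and the epoxide hydrolase gene Ephx1 at 0.16. In limma 0 genes of these 3 lists passed at adjusted p under 0.05. At an unadjusted p under 0.05, 3 were higher (Sult1a1, Gstm5 and Nfib) and 2 lower (Fdx1 and Foxa2). Of all probe sets 4.58% had an unadjusted p under 0.05 in either direction. All ethanol arrays lay above all controls for Sult1a1 and Gstm5 and below them for Foxa2, while Nfib and Fdx1 overlapped.

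Markers of cell types that an isolate could hold were also not called. Of 25 airway secretory cell genes outside the set 10 were measured, 2 higher and 8 lower (median -0.12), with Nupr1 at -0.27, Gabrp at -0.33, Tff2 at -0.21 and Reg3g at -0.21. Their mean level was 5.08 to 5.52 in the controls, highest in control 1, and 5.03 to 5.19 with ethanol. Of 24 ciliated cell genes 7 were measured, 4 higher and 3 lower, at a mean level of 4.03 to 4.26 in the controls and 4.03 to 4.25 with ethanol, and Foxj1, their defining transcription factor gene, was at -0.15. Of the 8 measured type 2 cell genes 3 were higher and 5 lower, with Sftpc at -0.22, Nkx2-1 at -0.41 and Sftpa1 at 0.23. Their mean level was 9.39 to 9.71 in the controls and 9.11 to 9.75 with ethanol. Type 1 cell genes (6 measured) had mean levels of 5.31 to 5.49 and 5.37 to 5.62, and macrophage genes (4 measured) of 4.31 to 5.09 and 4.22 to 4.83. In limma 0 genes of these 5 lists passed at adjusted p under 0.05. At unadjusted p under 0.05, 1 was higher and 1 lower, the type 1 cell genes Cav1 and Pdpn, beside 4.58% of all probe sets in either direction. Of the airway genes named, Gabrp (3.74), Tff2 (4.35), Reg3g (3.85) and Foxj1 (3.95) averaged below the array mean of 4.76, and Nupr1 (5.62) above it. Whether such dim probe sets read their transcript was not tested. The share of each cell type in the isolates, and its part in the member differences, was not tested.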

How the data were processed

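The deposited table held 1 value per probe set and array, read as log2 from its range (1.65 to 12.84); array means lay between 4.758 and 4.760. Summarisation, background correction and normalisation by the authors are not given in the sources used here, and probe sets sharing sequence can read each other's transcripts. Per the labels, RNA was biotin-labelled for an Affymetrix array. The 59 probe sets that control the hybridisation itself were not tested. The platform annotation gave 1 symbol to 7006 probe sets, several to 308 and none to 1426.

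Members and gene lists were chosen with earlier results of these data known. All member probe sets are described. Of each list, the up to 4 genes with the lowest unadjusted p and a few fixed genes could be named, and those printed were picked from them. For genes with several probe sets, the brightest stood for the gene. Limma 3.58.1 in R 4.3.3 fitted the diet group (two-sided, Benjamini-Hochberg over 8740 probe sets) and was tested on simulated data. The number of arrays limits the precision (median SE 0.148). Alternatives were quantile normalisation, median centring, leaving out the dimmest 25% of probe sets, a trended robust prior, array weights, a replicate block, no moderation, 1 value per gene and each array left out, and, chosen after seeing the data, Sec14l3 left out and shared probe sets kept for each gene. Figures used matplotlib 3.10.9.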

Additional observations from a re-analysis of the deposited data

How the results depend on the processing

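Leaving out the dimmest probe sets, the trended robust prior and no moderation cannot change a difference. The replicate block gave the same differences as leaving out control 1. Over 14 alternatives for each of the 13 member probe sets, 175 of 182 differences kept their direction, a count that includes those fixed or repeated ones. Those that turned belonged to Scgb1a1, at 0.11 with array weights, 0.14 with the replicate block and -0.17 to 0.14 with each array left out, and to Cyp4b1, at -0.053 with array weights and -0.087 to 0.27 with each array left out. The P450 median was 0.49 with 1 value per gene over the 5 P450 genes that have a probe set of their own. With Sec14l3 left out, chosen after seeing the data, the secretory median was -0.046 in place of 0.53 and P450 minus secretory was 0.89 in place of 0.31. The contrast ran from 0.17 to 0.47 with each array left out and was 0.083 with array weights. The member count at adjusted p under 0.05 in limma was 1 with array weights (Cyp2a3 on J02852_g_at), 5 with the replicate block and 0 to 2 with each array left out, the 2 without control 1. Of all probe sets 0.217% passed with array weights, 0.263% with the replicate block and 0.149% to 0.183% with each array left out. The member count at unadjusted p under 0.05, followed over the alternatives after seeing the data, ran from 8 to 11. The share of all probe sets at that level ran from 2.64% without control 3 to 11.8% with array weights. In 0 of the 13 did an array stand apart from the other controls by Dixon's criterion. Over the array, no variance moderation in limma gave 0 probe sets at adjusted p under 0.05 and 367 at unadjusted p under 0.05.

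The replicate block gave 23 probe sets over the array, and the 5 members were Sec14l3, J02852_g_at, K00996mRNA_s_at, K01721mRNA_s_at and M11251cds_f_at. It sets control 1, which has no partner, aside. Deviations of same-numbered arrays correlated at 0.43 for number 2, 0.067 for number 3 and 0.43 for number 4. For numbers 2 and 4 these were the best matches, the next being 0.063 with control 3 and 0.35 with control 1. Ethanol 3 correlated best with control 1 (0.10). The check does not settle whether equal numbers mark pairs. The labels give numbers only, so the main fit was left unpaired.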
